A study of Mus musculus with 19 samples.

Results

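The genes of voltage-gated calcium channels followed here were measured in RNA from the CA1 region of the mouse hippocampus: 8 pore-forming α1 subunits (Cacna1a, Cacna1b, Cacna1c, Cacna1d, Cacna1e, Cacna1g, Cacna1h and Cacna1i) and 2 α2δ subunits (Cacna2d1 and Cacna2d3). They were chosen by name, as 10 of the 48709 genes counted, and 10 of 10 passed the filter on low counts that left 19286 genes for testing. The study asked how age, and inhibition of 3 microRNAs in old mice, changed gene expression in this region, and the comparison made here was whether the L-type genes Cacna1c and Cacna1d moved apart from the other channel classes.

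The mice were male C57B/6J wild types by the study's methods, and all of them had been injected with lipid nanoparticles in the dorsal hippocampus. The 6 young mice were 3 months old and the 6 old control mice 16.5 months old, and by the study's methods both groups received scrambled control oligonucleotides. The 7 old anti-miR-mix mice were also 16.5 months old and received inhibitors of 3 microRNAs, namely miR-148a-3p together with miR-146a-5p and with miR-181a-5p. Groups follow the sample descriptions, since the sample titles of young and old control mice also begin with the name of the anti-miR-mix experiment. In the study, mice of these 3 groups were tested in a water maze. No young mice with the inhibitors were analysed here, and each group combined the injection with one age, so an effect of the particles or of surgery shared by all groups could not be measured. Each library came from microdissected CA1 tissue, is a separate sample in the labels, which do not number the animals, and held 26653511 to 38908947 counted reads. The p-values therefore measure the spread between these samples.

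Voltage-gated calcium channels open when the membrane depolarises and let calcium into the cell. The α1 subunit forms the pore and sets the class. L-type channels couple activity to gene expression in the cell body and dendrites, P/Q-, N- and R-type channels drive transmitter release and dendritic calcium signals, and T-type channels open at low voltage and shape burst firing. The α2δ subunits are extracellular partners that bring the channel to the membrane, and Cacna2d1 encodes the binding site of gabapentin. In hippocampal neurons a rise of L-type current with age has long been studied as a source of excess calcium. The data here are transcript levels, and neither channel protein nor current was measured in them.

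The 3 inhibited microRNAs are shown because the treatment was aimed at them and matches to their seeds were searched for in the channel transcripts. Mature sequences were taken from RefSeq annotation (GRCm38.p6), with the seed (bases 2 to 8) in capitals, and the 3 seeds differed from one another.
mmu-miR-146a-5p: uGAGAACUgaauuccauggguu
mmu-miR-148a-3p: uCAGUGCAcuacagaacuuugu
mmu-miR-181a-5p: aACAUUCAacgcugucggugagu

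Annotated 3′UTRs (GENCODE M21, GRCm38) of 5 of the 10 members held a perfect match to at least 1 of these seeds, against 36.7% of the 15351 tested genes with an annotated 3′UTR. Cacna1c and Cacna1b each held 1 match, to miR-181a-5p, and so did Cacna2d1. Cacna1i held 1 match, to miR-146a-5p, and Cacna1e held 1 for each of the 3 microRNAs. Each site is shown with its surrounding bases on the strand of the transcript, with the 7 matching bases in capitals, and the coordinates are those of the 7 bases.
Cacna1c, miR-181a-5p, chr6:118591449-118591455: agtctgctcttgTGAATGTtca
Cacna1b, miR-181a-5p, chr2:24604559-24604565: tctcttgagtgtTGAATGTata
Cacna1e, miR-181a-5p, chr1:154394037-154394043: ccaactctcccaTGAATGTgat
Cacna2d1, miR-181a-5p, chr5:16372270-16372276: gggtaaaaacaaTGAATGTgtc
Cacna1e, miR-146a-5p, chr1:154397491-154397497: ggaactccatgcAGTTCTCcac
Cacna1i, miR-146a-5p, chr15:80397001-80397007: tcctgagtcccaAGTTCTCaga
Cacna1e, miR-148a-3p, chr1:154391217-154391223: caaatggtaaggTGCACTGgta

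Motifs were searched on the transcript strand alone. AGTTCTC, for miR-146a-5p, occurred in the 3′UTRs of 13.4% of the tested genes. For miR-148a-3p the motif TGCACTG occurred in 15.8% of them, and for miR-181a-5p the motif TGAATGT in 19.2%. The 3 motifs do not overlap in any of the sites shown. The members with matches had long 3′UTRs, from 2620 bases in Cacna1i to 7662 in Cacna1e, against a median of 1235 over tested genes. The members without a match were Cacna1d (2132 bases), Cacna1h (1821), Cacna1g (754), Cacna1a (538) and Cacna2d3 (322). A match is a stretch of letters and not a measured site.

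Before the results, the libraries themselves need a description. Old control replicates 5 and 6 were nearly the same: their counts over 12780 genes differed by a chi-square of 2.18 per degree of freedom, and the next closest pair of libraries within a group by 6.10. Calls that rest on old control mice were therefore repeated with these 2 as 1 library, and the value is given beside each named gene whose call was lost and beside the leading members. The deposited log2 table had removed a trend on a number from 1 to 4 per library, called a processing group here. Its source is not described, and processing group 3 held no old control library, so it was treated as a possible batch. The CA1 pyramidal markers (7 genes with an identifier, among them Wfs1 and Fibcd1) summed to 844 to 1216 CPM (library-size-scaled counts) in the 19 libraries, against 146 to 204 CPM for 9 CA3 and CA2 markers, 136 to 240 for 8 dentate granule markers and 18 to 107 for 7 choroid plexus markers, and no marker with an identifier was at 0 in all libraries. In bulk tissue, fewer cells of a type and less RNA per cell cannot be told apart.

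All 10 members were well covered, with the lowest count of any member in any library at 1666 reads (Cacna1d). To compare levels between genes, counts were divided by exon length (RPKM, the CPM value per kilobase of exon). By this measure the R-type gene Cacna1e was highest at 23.2 ± 1.89 RPKM (SD over 19 libraries), followed by Cacna2d1 at 19.6 ± 1.77. The N-type gene Cacna1b (16.4 ± 0.82), the P/Q-type gene Cacna1a (14.5 ± 0.72), Cacna2d3 (13.7 ± 0.98), and the T-type genes Cacna1h (13.6 ± 1.69), Cacna1g (12.7 ± 1.08) and Cacna1i (10.2 ± 0.76) came next in RPKM. The order of these 6 depends on the length used: with the longest transcript of each gene in place of all its exons, Cacna2d3 stood at 32.4 RPKM, Cacna1a at 20.8 and Cacna1b at 16.8. The L-type genes were the lowest members, at 5.04 ± 0.30 RPKM for Cacna1d and 4.29 ± 0.25 for Cacna1c.

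**Figure D1:**
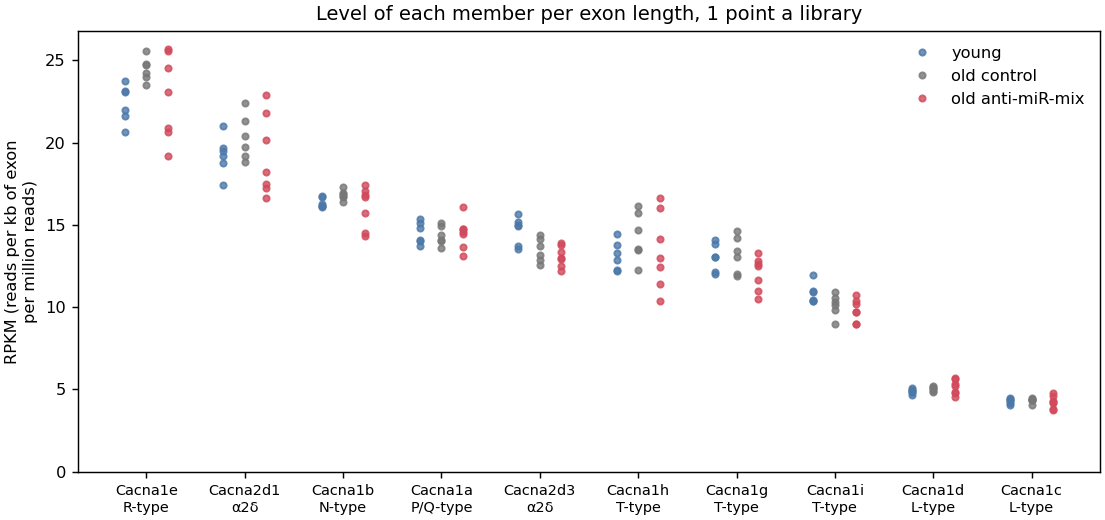
Level of each member in RPKM (vertical axis, linear) in the 19 libraries, 1 point a library, coloured by group and ordered by mean level. The L-type genes Cacna1d and Cacna1c stand apart at 3.78 to 5.69 RPKM, and the 8 other members lie between 8.96 and 25.7 RPKM.

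Most neighbours in this order held their places in every library. Cacna1e was above Cacna2d1, Cacna2d1 above Cacna1b, Cacna1g above Cacna1i and Cacna1i above Cacna1d in 19 of 19 libraries. The middle of the order was not resolved: Cacna1a was above Cacna2d3 in 15 libraries, Cacna2d3 above Cacna1h in 10 and Cacna1h above Cacna1g in 13. Cacna1d was above Cacna1c in 19 of 19, but this too depended on the length used, since with the longest transcript Cacna1c (6.91 RPKM) was above Cacna1d (6.58 RPKM). By either length the 2 L-type members were the lowest 2 of the 10.

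With age, 0 of the 10 members passed the test (edgeR quasi-likelihood test with Benjamini-Hochberg adjustment, threshold 0.05, old control minus young), where 2.67% of the 19286 tested genes did. DESeq2 also called 0. At an unadjusted p under 0.05 there were 2 members, against 18.1% of all tested genes: Cacna1e, which was higher in old mice, and Cacna2d3, which was lower. The log2 fold changes of the 10 members lay between -0.11 and 0.14, with a median of 0.046 against 0.0064 over all tested genes, and 7 were above 0. The groups overlapped for 10 of 10 members, and did not overlap for 2.54% of tested genes.

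Of the L-type genes, Cacna1c (chr6:118587240-119196418, minus strand), the main cardiac and brain L-type pore, had a lowest, median and highest log2 CPM of 6.43, 6.53 and 6.56 in young libraries and of 6.48, 6.55 and 6.57 in old control libraries. The old control values lay almost wholly inside the young range. The fitted log2 fold change was 0.03 (SE 0.049, 95% interval -0.07 to 0.13, edgeR adjusted p = 0.802).

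Cacna1d (chr14:30039939-30491455, minus strand) encodes the L-type pore that opens at more negative voltages and acts as a pacemaker in several cell types. Its lowest, median and highest log2 CPM were 5.89, 5.94 and 6.01 in young and 5.97, 6.01 and 6.05 in old control libraries. Old control values sat in the upper part of the young range and beyond it, and the groups overlapped. The log2 fold change was 0.06 (SE 0.050, 95% interval -0.05 to 0.16, edgeR adjusted p = 0.604), which in linear terms spans from 3.24% lower to 11.6% higher. Cacna1d shares 589 exon bases with Chdh on the opposite strand, and the setting for strand in the counting is not given in the sources used here.

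Among the release channels, Cacna1e (chr1:154390731-154884501, minus strand), the R-type pore found in CA1 dendrites and spines, had the largest value above 0 with age. Its log2 CPM ran over 9.03, 9.14 and 9.23 (lowest, median, highest) in young and over 9.23, 9.27 and 9.38 in old control libraries. The lowest old control library lay at the highest young library, and all the others were above it. The log2 fold change was 0.14 (SE 0.065, 95% interval 0.01 to 0.28, unadjusted p = 0.0385, edgeR adjusted p = 0.244), and within processing groups it was 0.15 (adjusted p = 0.318). With old control 5 and 6 as 1 library it was also 0.15 (adjusted p = 0.287), and the calls of the other members with age stayed as they were, at 0 of 10.

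Cacna1b (chr2:24603887-24763152, minus strand), the N-type pore of presynaptic terminals, differed by 0.06 in log2 fold change (SE 0.046, adjusted p = 0.567). Young libraries held 7.30, 7.34 and 7.39 log2 CPM and old control libraries 7.37, 7.40 and 7.43 (lowest, median, highest), with an overlap at 7.37 to 7.39. Cacna1a (chr8:84388440-84640246, plus strand), the P/Q-type pore of most central synapses, gave -0.003 (SE 0.047, adjusted p = 0.985), the smallest change of the 10. Its log2 CPM was 7.30 to 7.46 in young and 7.30 to 7.48 in old control libraries. Cacna1a shares 435 exon bases with the antisense transcript Gm16183, which had at most 81 reads in a library.

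None of the 3 T-type genes passed the test with age. Cacna1h (chr17:25374285-25433783, minus strand) gave 0.14 on the log2 scale (SE 0.10, adjusted p = 0.504), with the widest interval of the 10 members, from -0.07 to 0.35. Cacna1g (chr11:94408391-94474198, minus strand) gave 0.04 (SE 0.063, adjusted p = 0.819), and Cacna1i (chr15:80287238-80398279, plus strand) gave -0.08 (SE 0.051, adjusted p = 0.427). In log2 CPM, Cacna1h was 6.89 to 7.15 in young and 6.92 to 7.31 in old control libraries, and the ranges of the other 2 T-type genes overlapped in the same way.

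**Figure D2:**
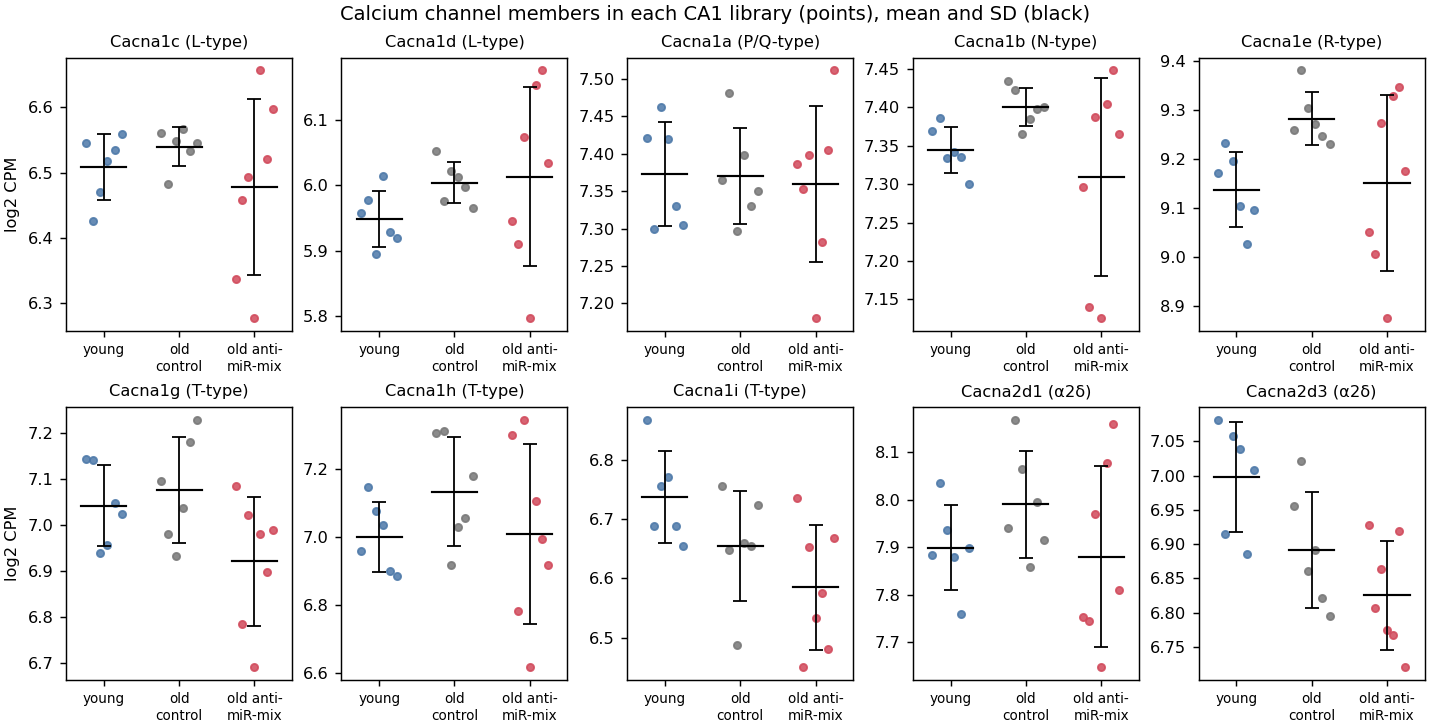
log2 CPM of each member (vertical axes, each with its own range) by group, 1 point a library in order of replicate number, with the mean and SD in black. The groups overlap in every panel, and the old anti-miR-mix points are the most spread in 9 of the 10.

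Of the α2δ genes, Cacna2d3 (chr14:28904943-29721864, minus strand), a presynaptic α2δ subunit, had 6.89, 7.02 and 7.08 log2 CPM (lowest, median, highest) in young, 6.80, 6.88 and 7.02 in old control and 6.72, 6.81 and 6.93 in old anti-miR-mix libraries. The lowest values were in the treated old mice, and neighbouring groups overlapped. The age difference was -0.11 in log2 fold change (SE 0.046, unadjusted p = 0.0318, edgeR adjusted p = 0.221). With old control 5 and 6 as 1 library, 1 member had an unadjusted p under 0.05 with age. The lowest log2 fold change of any member was then -0.09. In 32 alternative runs Cacna2d3 ran from -0.13 to -0.08 with age and was called in 0. Cacna2d1 (chr5:15934691-16374511, plus strand) gave 0.09 (SE 0.075, adjusted p = 0.562), with 7.76, 7.89 and 8.04 log2 CPM in young and 7.86, 7.97 and 8.17 in old control libraries.

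Under anti-miR-mix, 0 of the 10 members passed the test against old control, and 0.669% of tested genes did, 129 higher and 0 lower. DESeq2 called 0 members as well. At an unadjusted p under 0.05 there was 1 member, Cacna1g, against 10.5% of all tested genes. The log2 fold changes were below 0 for 9 of 10 members, from -0.15 to 0.01 with a median of -0.078, against a median of 0.00035 and 49.8% below 0 over all tested genes. Medians below 0 were not particular to the members. The median was -0.049 over 15 other tested channel family genes, -0.045 over 83 calcium-handling genes and -0.059 over 8 pan-neuronal markers. Over 7 CA1 pyramidal markers the median was -0.13, further below 0 than over the members, and over 9 inhibitory neuron markers it was -0.059. It was above 0 for CA3 and CA2 markers (0.14), dentate granule markers (0.15) and thalamic markers (0.076). The groups overlapped for 10 of 10 members, and did not overlap for 0.498% of tested genes.

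Cacna1c had 6.28, 6.49 and 6.66 log2 CPM (lowest, median, highest) in old anti-miR-mix libraries, and the treated libraries reached both below and above every old control library. The log2 fold change from old control was -0.06 (SE 0.047, 95% interval -0.16 to 0.04, edgeR adjusted p = 0.730). Cacna1d had 5.80, 6.03 and 6.18 log2 CPM in old anti-miR-mix libraries, again on both sides of the old controls, and was the only member with a value above 0, at 0.01 (SE 0.048, 95% interval -0.08 to 0.11, adjusted p = 0.949).

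Cacna1g, a T-type pore of thalamic and hippocampal neurons, had 6.69, 6.98 and 7.08 log2 CPM (lowest, median, highest) in old anti-miR-mix and 6.93, 7.07 and 7.23 in old control libraries. Its log2 fold change was -0.15 (SE 0.061, 95% interval -0.28 to -0.03, unadjusted p = 0.0192, edgeR adjusted p = 0.344). Within processing groups it was -0.11 (adjusted p = 0.775), and with old control 5 and 6 as 1 library it was -0.13 (adjusted p = 0.592), where 0 of 10 members had an unadjusted p under 0.05. In this comparison 3 of 7 microglial markers were higher (Csf1r, C1qa and Trem2), with sums of 376 to 493 CPM in old anti-miR-mix against 327 to 384 in old control libraries, and 0 of the 7 passed within processing groups. With old control 5 and 6 as 1 library Trem2 passed (adjusted p = 0.0245), and Csf1r (0.0712) and C1qa (0.0810) did not. Their part in the member values was not tested.

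The other members below 0 were Cacna1e at -0.12 (SE 0.063, adjusted p = 0.515), Cacna1h at -0.11 (SE 0.096, adjusted p = 0.743), Cacna2d1 at -0.10 (SE 0.072, adjusted p = 0.665), Cacna1b at -0.09 (SE 0.045, adjusted p = 0.517), Cacna1i at -0.07 (SE 0.049, adjusted p = 0.669), Cacna2d3 at -0.07 (SE 0.045, adjusted p = 0.649) and Cacna1a at -0.01 (SE 0.045, adjusted p = 0.969). The 5 members with a seed match (Cacna1c, Cacna1b, Cacna1e, Cacna1i and Cacna2d1) had log2 fold changes of -0.12 to -0.06, and the 5 without one had -0.15 to 0.01. None of the 10 passed the test, and the 2 sets of values overlapped. With the shorter seed of bases 2 to 7, Cacna1a, Cacna1d and Cacna1h also held a match, and Cacna1g and Cacna2d3 held none. Such matches occurred in 35.0% (miR-146a-5p), 39.0% (miR-148a-3p) and 37.5% (miR-181a-5p) of tested genes with an annotated 3′UTR.

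**Figure D3:**
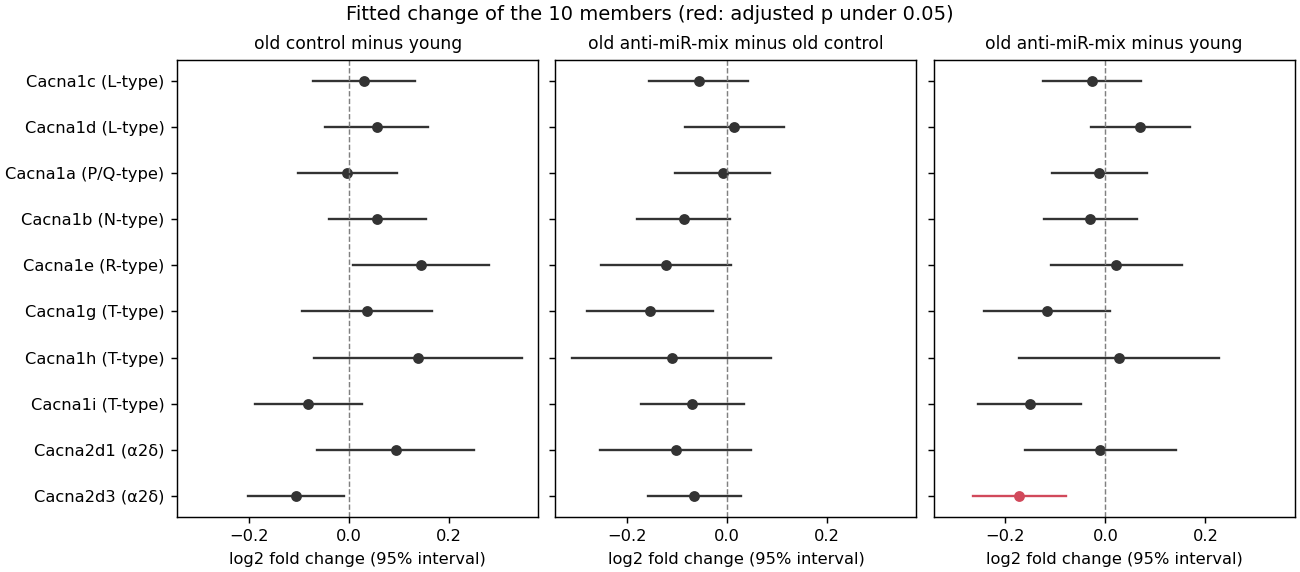
Fitted log2 fold change of each member (points) with its 95% interval (lines) in the 3 comparisons, on a shared horizontal axis. Cacna2d3 in old anti-miR-mix against young, at -0.17, is the 1 member past the adjusted threshold, drawn in red.

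The low values came largely from the same libraries. Old anti-miR-mix replicate 4 was the lowest of all 19 libraries for 8 of the 10 members, and replicate 2 was below the mean of the 19 for 10 of 10. The median deviation over the members was -0.23 log2 CPM in replicate 4 and -0.18 in replicate 2, and it lay between -0.04 and 0.09 in the other 17 libraries. The same 2 libraries had the lowest sums of CA1 pyramidal markers in their group, at 844 and 864 CPM against 967 to 1166 in the other 5, and the highest sums of thalamic markers, at 209 and 223 CPM against 150 to 184. The part of these marker differences in the member values was not tested. Without replicate 4 the median member change under treatment was -0.06 with 8 of 10 below 0, and without replicate 2 it was -0.06 with 9 of 10 below 0. Each of these fits kept the other low library, and a fit without both was not run.

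For most members the treated group was also the most spread. The SD of log2 CPM was widest in old anti-miR-mix for 9 of the 10 members (Cacna1i, Cacna1h, Cacna1g, Cacna1e, Cacna1d, Cacna1c, Cacna1b, Cacna1a and Cacna2d1), with a median of 0.14, against 0.08 in young and 0.07 in old control. Cacna2d3 was the exception, with SDs of 0.08 in each of the 3 groups. The spread was not limited to the members. Over 12780 genes, pairs of old anti-miR-mix libraries differed by a chi-square per degree of freedom of up to 35.87. The largest value was 24.95 in old control and 24.93 in young. The share of all tested genes with their widest SD in the treated group was not counted. The treated group includes replicates 4 and 2, which were below the mean for 10 of 10 members. Old control includes replicates 5 and 6, which were nearly the same. A group of 7 libraries also has more pairs than a group of 6. The part of these libraries in the spread was not tested.

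The treated old mice were also compared with young mice. This comparison shares its libraries with both others. The 1 member that passed the test was Cacna2d3, which was lower (6.2% of tested genes passed). At an unadjusted p under 0.05 there were 2 members, against 19.6% of tested genes. Cacna2d3 fell by 0.17 on the log2 scale (SE 0.044, 95% interval -0.26 to -0.08, edgeR adjusted p = 0.0218), that is by 11.2%, and within processing groups it fell by 0.17 (adjusted p = 0.00876). The size of this change was larger than that of 72.1% of tested genes, and the 2 groups overlapped, as they did for 10 of 10 members (2.42% of tested genes did not overlap). Its adjusted p was over 0.05 without young replicate 1 (0.0697), young replicate 3 (0.0628), young replicate 4 (0.0576) or old anti-miR-mix replicate 5 (0.0518).

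Cacna1i, the T-type gene with the slowest kinetics, came next, with 6.65, 6.72 and 6.87 log2 CPM (lowest, median, highest) in young, 6.49, 6.66 and 6.76 in old control and 6.45, 6.58 and 6.73 in old anti-miR-mix libraries. Its log2 fold change from young to treated old was -0.15 (SE 0.049, unadjusted p = 0.00598, edgeR adjusted p = 0.0762). The call changed with the tool, since DESeq2 gave -0.16 (adjusted p = 0.0408), and edgeR within processing groups gave -0.15 (adjusted p = 0.0508). The L-type genes did not pass, with -0.03 for Cacna1c (95% interval -0.13 to 0.07, adjusted p = 0.825) and 0.07 for Cacna1d (95% interval -0.03 to 0.17, adjusted p = 0.461). The other 6 members lay between -0.12 (Cacna1g, adjusted p = 0.294) and 0.03 (Cacna1h, adjusted p = 0.922).

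In the mice of this comparison, markers of other cells moved too. Of 7 microglial markers, 6 were higher in treated old than in young libraries, and their sum was 376 to 493 CPM against 260 to 331 in young. Of 7 astrocyte markers, 3 were higher (Gfap, Slc1a3 and S100b), with sums of 2770 to 3509 CPM against 2310 to 2735. Of the neuronal lists, 1 of 7 CA1 pyramidal markers (Wfs1, -0.36) and 1 of 8 pan-neuronal markers (Stmn2, -0.15) were lower. The CA1 pyramidal list as a whole had a median log2 fold change of 0.09. Its sums overlapped, at 844 to 1166 CPM against 985 to 1183 in young. The pan-neuronal list had a median of -0.06, and its sums overlapped at 6403 to 7056 CPM against 6772 to 7089 in young. Of 6 oligodendrocyte precursor markers, 2 were lower (Gpr17, -0.69, and Bmp4, -0.84), and of 8 thalamic markers 1 was higher (Prkcd, 0.50). The thalamic list as a whole had a median log2 fold change of -0.11, and its sums overlapped at 150 to 223 CPM against 153 to 205 in young. The part of these shifts in the fall of Cacna2d3 was not tested.

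For the size of what could be seen, the standard errors of the members ran from 0.044 to 0.10 on the log2 scale. The 95% intervals lay within 0.25 of 0 (18.9% higher or 15.9% lower) for 8 of 10 members with age, for 6 under treatment and for 8 between treated old and young mice.

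The question of L-type against other classes was put to each library. Within a library the mean log2 RPKM of Cacna1c and Cacna1d was compared with that of the 6 other pore-forming members by subtracting the second from the first, so that depth cancels. The result is given without a test, since the members were chosen with earlier results known. The 6 young libraries averaged -1.67 ± 0.06 (SD) and the 6 old control libraries -1.68 ± 0.07 (SD). For the 7 treated old libraries the average was -1.61 ± 0.10 (SD). The lowest, median and highest values were -1.74, -1.67 and -1.60 in young, -1.77, -1.68 and -1.56 in old control and -1.80, -1.58 and -1.50 in old anti-miR-mix libraries. The 3 groups overlapped, and the treated old mean was above the young mean by 0.067, against SDs of 0.063 in young and 0.10 in treated old libraries. With old control 5 and 6 as 1 library the old control mean differed from the young mean by 0.00072 in log2 CPM.

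Each comparison class was also taken alone. Against the P/Q-, N- and R-type genes alone the L-type genes lay at -1.93 ± 0.06 (young), -1.95 ± 0.06 (old control) and -1.90 ± 0.06 (treated old), each with the SD of differences in log2 RPKM. Against the T-type genes they lay at -1.42 ± 0.07, -1.40 ± 0.11 and -1.31 ± 0.16. The means shifted between old control and young by -0.02 and 0.02 in these 2 contrasts, each less than the SD in either group. Between treated old and young they shifted by 0.03 and 0.10, the second more than the young SD of 0.07 and less than the treated SD of 0.16.

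**Figure D4:**
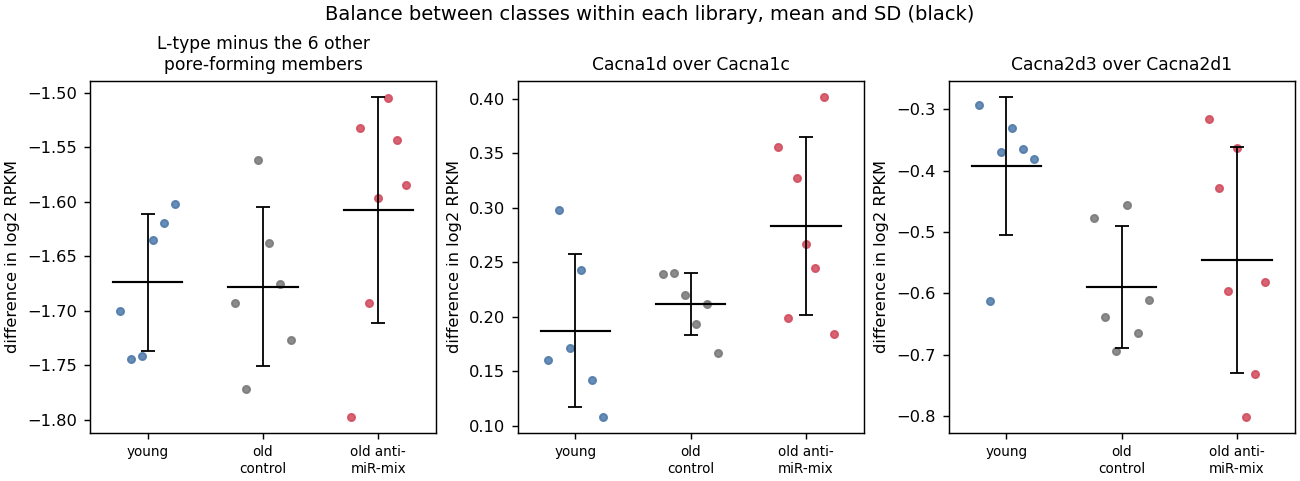
Differences in log2 RPKM within each library (vertical axes) for the L-type genes against the 6 other pore-forming members, for Cacna1d over Cacna1c, and for Cacna2d3 over Cacna2d1, with group mean and SD in black. The L-type contrast averages -1.67, -1.68 and -1.61 in the 3 groups, and Cacna2d3 over Cacna2d1 is lowest on average in old control at -0.59.

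The balance between the 2 L-type genes was read in the same way. Cacna1d exceeded Cacna1c by 0.19 ± 0.07 log2 RPKM (SD) over the 6 young libraries, by 0.21 ± 0.03 over the 6 old controls and by 0.28 ± 0.08 over the 7 treated old mice. All 3 groups overlapped, with 0.11 to 0.30, 0.17 to 0.24 and 0.18 to 0.40. Between the α2δ members, Cacna2d3 minus Cacna2d1 was -0.39 ± 0.11 log2 RPKM in young, -0.59 ± 0.10 in old control and -0.55 ± 0.18 in old anti-miR-mix libraries. The level of this difference comes from the exon length, since with the longest transcript the 2 genes stood at 32.4 and 32.7 RPKM over the 19 libraries, and the differences between groups do not depend on it. In young, 5 of the 6 libraries were between -0.38 and -0.29 and replicate 2 was at -0.61, inside the old range.

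Members varied together across libraries to different degrees. Over 19 libraries, which share their depth and scaling, Pearson's r of log2 CPM between pairs of members ran from -0.14 to 0.91 with a median of 0.39 over 45 pairs. The highest were Cacna1e with Cacna2d1 (0.91) and Cacna1b with Cacna1e (0.88). Cacna1c and Cacna1d had r = 0.64 with each other, and Cacna2d3 had its highest value with Cacna1i (0.56). These are descriptions of the 19 libraries, 2 of which were low for nearly all members.

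Among 10746 genes with a mean log2 CPM of at least 3, the 3 most like Cacna1c across the 19 libraries were Dlg5 (r = 0.83), Jmjd4 (0.80) and Tenm2 (0.79). Those most like Cacna1d were Tpd52l1 (0.81), Zfp697 (0.79) and Gm18609 (0.78). For Cacna2d3 they were Dclk1 (0.84), Pacs1 (0.83) and Sema3a (0.82).

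The other genes of the channel family were read from the same fit. Of 16 further genes, 15 were tested, and Cacng1, with at most 5 reads in a library, was not. The 1 that fell with age was Cacna2d4, an α2δ subunit best known from the retina, which is 6.67% of the 15 against 2.67% of tested genes. Under treatment and between treated old and young mice 0 passed by edgeR, against 0.669% and 6.2% of tested genes. At an unadjusted p under 0.05 there were 1 and 4 of the 15, against 10.5% and 19.6% of tested genes.

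Cacna2d4 (chr6:119236526-119352407, plus strand) was a low-abundance gene, with 38 to 173 reads a library. Its log2 CPM was 1.31, 1.76 and 2.19 (lowest, median, highest) in young, 0.50, 1.00 and 1.12 in old control and 1.07, 1.37 and 1.76 in old anti-miR-mix libraries. Every young library was above every old control library, and the treated libraries lay between and overlapped both. With age it fell by 0.88 on the log2 scale (SE 0.150, edgeR adjusted p = 0.00276), that is, its level fell by 45.5% with a 95% interval of -56.1% to -32.4%, and within processing groups by 0.88 (adjusted p = 0.00462). With old control 5 and 6 as 1 library it fell by 0.89 (adjusted p = 0.00682). Under anti-miR-mix the log2 fold change was 0.42 (SE 0.148, adjusted p = 0.266), and against young the treated mice stood at -0.45 (SE 0.140, adjusted p = 0.0579), or at -0.49 within processing groups (adjusted p = 0.0327).

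**Figure D5:**
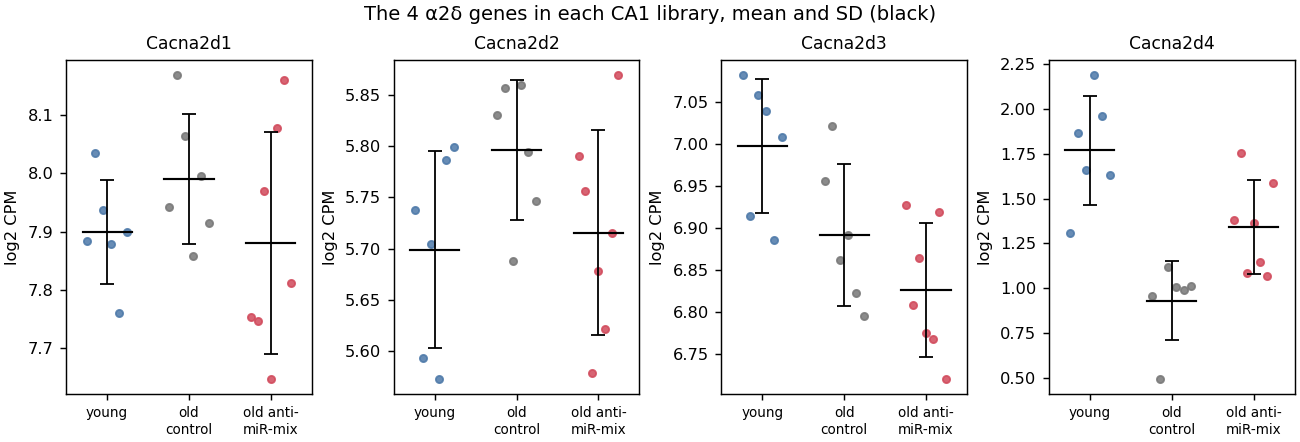
log2 CPM of the 4 α2δ genes (vertical axes, each with its own range) in the 3 groups, 1 point a library, with the mean and SD in black. Cacna2d4 separates young (1.31 to 2.19) from old control (0.50 to 1.12), and Cacna2d1, Cacna2d2 and Cacna2d3 overlap in all groups.

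Markers of glial cells moved in the same comparison. With age the oligodendrocyte markers Mog, Mag, Cnp and Cldn11 were lower, and 2 of 6 precursor markers were lower (Gpr17 and Bmp4), with sums of 170 to 189 CPM in old control against 209 to 238 in young. Mag did not pass within processing groups (adjusted p = 0.0660), in 12 of 19 leave-one-out fits or with old control 5 and 6 as 1 library (adjusted p = 0.103). Of 7 microglial markers 1 was higher (Cx3cr1, 0.35), and of 7 astrocyte markers 1 was higher (S100b, 0.30). Their part in the fall of Cacna2d4 was not tested.

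The remaining α2δ gene, Cacna2d2, gave log2 fold changes of 0.10 with age, -0.08 under treatment and 0.02 between treated old and young mice (adjusted p = 0.316, 0.590 and 0.904). Of the β subunits, which bind the pore from inside the cell, Cacnb2 had the largest age difference at 0.23 (SE 0.080, unadjusted p = 0.00755, adjusted p = 0.115), with 5.99 to 6.37 log2 CPM in young and 6.14 to 6.61 in old control libraries. Cacnb1, Cacnb3 and Cacnb4 had -0.01, 0.07 and -0.12 with age. Among the γ genes, most of which encode AMPA receptor partners (TARPs), Cacng2, or stargazin, had -0.13 with age (unadjusted p = 0.0220, adjusted p = 0.190) and -0.14 in treated old against young mice (adjusted p = 0.102). Cacng2 shares 323 exon bases with the antisense A730060N03Rik, which had at most 88 reads in a library. Cacng3, Cacng4, Cacng5, Cacng6, Cacng7 and Cacng8 had adjusted p of 0.308 to 0.987 with age.

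The L-type genes of muscle and retina had few reads. Cacna1s had 4 to 16 reads and Cacna1f 15 to 44 reads a library, and neither passed a test.

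Of 83 genes of 7 lists that handle calcium downstream of the channels, 83 were tested. With age 1 was higher, Calb1, the calcium buffer calbindin of CA1 pyramidal and dentate granule cells, at 0.42 (SE 0.101, edgeR adjusted p = 0.0302), which made 1 of 11 calcium-binding buffers and sensors, and 0 of the 83 were lower. Calb1 passed in 22 of 32 alternatives and in 11 of 19 leave-one-out fits (adjusted p up to 0.0725), and not with old control 5 and 6 as 1 library (0.41, adjusted p = 0.0600). The 1 of 83 is 1.2%, against 2.67% of tested genes. Under treatment 0 of the 83 passed, against 0.669% of tested genes. At an unadjusted edgeR p under 0.05 there were 6 of the 83 under treatment, against 10.5% of tested genes. With age there were 20 (18.1% of tested genes), and in treated old against young mice 17 (19.6% of tested genes). In treated old against young mice 4 were lower and 0 higher, which is 4.82% against 6.2% of tested genes. These lists were chosen with earlier results of the data known, so their counts are a description.

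The 4 lower genes were 3 of 18 calcium/calmodulin signalling genes, Camk4 (-0.26, SE 0.058, adjusted p = 0.00766), Creb1 (-0.16, SE 0.044, adjusted p = 0.0341) and Camkk2 (-0.17, SE 0.047, adjusted p = 0.0376), and 1 of 9 calcium extrusion genes, Atp2b2 (-0.18, SE 0.053, adjusted p = 0.0491). Camk4 and Camkk2 encode calcium/calmodulin-dependent kinases, Creb1 a transcription factor and Atp2b2 a plasma membrane calcium pump. Of 19 leave-one-out fits, Camk4 passed in 19, Creb1 in 12, Camkk2 in 9 and Atp2b2 in 3. None of the 11 active zone scaffold genes, 6 calcium-activated potassium channels, 13 calcium store genes or 15 channel regulators passed in any of the 3 comparisons.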

How the data were processed

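Polyadenylated RNA of microdissected CA1 was sequenced as 50-base single reads, and the authors deposited raw counts per gene for each of the 19 libraries. The submitters' processing notes name FastQC 0.11.5, STAR 2.5.2b, Subread 1.5.1 (featureCounts) and build mm10, and the strand option is not given in the sources used here. The authors also deposited a table of log2 values for 18761 genes, from which a trend on a number from 1 to 4 per library had been removed. These counts were fitted with edgeR 4.0.16 in R 4.3.3 (quasi-likelihood test, TMM scaling, all 19 libraries in 1 fit) for genes that reached 5 reads in 50% of libraries or more, and p-values were adjusted over 19286 genes by the Benjamini-Hochberg method. The pipeline was tested on simulated data.

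Levels are log2 CPM with a prior count of 2, or RPKM over exon bases of GENCODE M21. Depth was 26653511 to 38908947 reads, so counting error was small for the members (1666 reads or more) and larger for Cacna2d4 (38 reads or more). Alternatives used DESeq2 1.42.0, limma 3.58.1 on the deposited log2 table, other filters, scalings and library sets. Genes named are the members, the channel family, called genes of the pathway and marker lists, genes that share exon bases with them, and the 3 genes most like Cacna1c, Cacna1d and each called member. Fibcd1 is named only as an example of its marker list. The members and lists were chosen with earlier results of these data known. Values of 1 oligodendrocyte marker, and the sum of that list, are not reported here.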

Additional observations from a re-analysis of the deposited data

Results flagged for a closer look

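Of 84 groups of values examined (25 channel genes and 3 ratios in 3 groups), 5 held a library set apart from the rest of its group by a wide gap, and chance alone gives about 1 in 20. Values are in log2 CPM. Cacna2d4 in old control 2 was lowest at 0.496, with the other old control libraries at 0.96 to 1.12. Cacng4 in the same library was lowest at 4.34, with the others at 4.47 to 4.54. The log2 ratio of Cacna2d3 to Cacna2d1 in young 2 was lowest at -1.12, with the others at -0.89 to -0.80. Cacna1s in young 2 was highest at -0.95, with the others at -2.19 to -1.88, and Cacna1f in old anti-miR-mix 7 was highest at 0.72, with the others at -0.17 to 0.20, both in genes of few reads.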

How the results depend on the processing

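No member was called with age or under treatment by any alternative run. Between treated old and young mice the count of members called was 1, and it became 2 under DESeq2, with a replicate block, with the block and a GC and length correction, with that correction alone, and with processing group as a factor and old control 5 and 6 as 1 library, the last chosen after seeing the data. Leaving out a replicate gave 0 to 2. Cacna2d3 was called in 28 of 32 alternatives (adjusted p 0.00406 to 0.0697) and Cacna2d4 with age in 32 of 32 (log2 fold change -0.95 to -0.60).

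Genes called with age, 514 as reported, were 914 under DESeq2, 323 with no filter, 772 with the 2 groups only, 899 with the block and GC and length correction, 305 with old control 5 and 6 as 1 library, 223 with that and processing group, and 212 to 691 when a replicate was left out. Genes called under treatment, 129 as reported, were 267 under DESeq2, 55 with the 2 groups only, 246 with the block, 244 with the block and correction, 9 with processing group as a factor, 33 with old control 5 and 6 as 1 library, 6 with both, and 23 (without old control 5) to 247 (without old anti-miR-mix 1) when a replicate was left out. The cause was not tested.

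The values that changed sign were small as reported, at most 0.036 in size. Cacna1a with age became 0.0020 (at least 20 reads), 0.034 (block and correction), 0.035 (GC and length correction) and 0.0025 (old control 5 and 6 as 1 library). Cacna1a under treatment became 0.0040 (processing group), 0.0055 (processing group and 1 library) and 0.016 (limma on the deposited values), and in treated old against young 0.018 (correction). Cacna1g with age became -0.018 (processing group and 1 library), and Cacna2d1 in treated old against young became 0.029 (block and correction) and 0.014 (correction). When a replicate was left out, the ranges of the values that changed sign were -0.026 to 0.021, -0.035 to 0.018 and -0.038 to 0.014 for Cacna1a (age, treatment, treated old against young), -0.014 to 0.047 for Cacna1d under treatment, and in treated old against young -0.054 to 0.0024 for Cacna1c, -0.0074 to 0.062 for Cacna1e, -0.030 to 0.083 for Cacna1h and -0.055 to 0.025 for Cacna2d1. With 6-base seeds (bases 2 to 7), 6 members matched miR-146a-5p (35.0% of tested genes), 6 miR-148a-3p (39.0%) and 4 miR-181a-5p (37.5%).

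The labels do not number the animals, and the values did not decide whether the replicate numbers pair the mice. Of 18 pairs of same-numbered libraries, 9 had a correlation over 0.1 (-0.461 to 0.444), and 4 of 18 libraries correlated best with their own number. With the replicate block 650, 246 and 1191 genes were called with age, under treatment and between treated old and young, without old anti-miR-mix 7, which shares no number, and Cacna1i joined the members called in the last (-0.17, adjusted p = 0.0368). Depth does not limit the members, but 6 or 7 mice a group leave standard errors of 0.044 to 0.10.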
